A study of Mus musculus with 3 samples.

Results

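Messenger RNAs of 8 genes of the interleukin-1 (IL-1) system were measured in the cytosol of mouse macrophages 20 min after Lipid A. They were taken by name: the agonist cytokines Il1a, Il1b and Il18, the soluble blockers Il1rn and Il18bp, the receptors Il1r1 and Il1r2, and the shared receptor chain Il1rap. They are 8 of the 55536 gene rows in the deposited gene tables, and the rule that picks them uses names alone. The 3 agonists and both blockers were at 1 TPM or more (transcript abundance per length, scaled to a fixed sum) in every library. Il1rap was just below that level, and Il1r1 and Il1r2 were far below it. Il1b and Il1a were the members that differed most between libraries, Il1b by 3.41 times, while Il18 differed by 1.05 times.

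IL-1 alpha and IL-1 beta bind the receptor Il1r1, which then recruits Il1rap and signals through the adaptor Myd88. The antagonist encoded by Il1rn occupies Il1r1 without recruiting Il1rap, Il1r2 is a decoy that binds ligand but lacks the signalling domain, and the Il18bp protein binds and neutralises IL-18. In macrophages Il1b is a classical target of Toll-like receptor signalling whose protein needs cleavage, mostly by caspase-1, to become active, whereas IL-18 precursor is commonly made without stimulation.

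The cells were primary bone-marrow-derived macrophages of C57BL/6J mice, stimulated for 20 min with 100 ng/ml Lipid A, the part of bacterial lipopolysaccharide that Tlr4 recognises. RNA of the cytosolic fraction was depleted of ribosomal RNA and sequenced in 3 libraries of this 1 condition, which the labels number as biological replicates 1, 2 and 3. All carry the same donor identifier, age and sex are given as not collected, and no genetic change is named, so SDs measure the spread between these libraries and may be partly technical. Neither unstimulated cells nor other times are analysed here, so no member can be called induced or repressed. With 3 libraries the smallest two-sided p of an exact sign-flip test is 0.25, so no ratio was tested.

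Depth was 27392626, 81597761 and 37176950 expected counts per gene table for replicates 1, 2 and 3, so replicate 2 was the deepest. Nuclear protein-coding genes took 25.0%, 22.0% and 19.6% of the deposited TPM, which shifts all mRNAs together. TPM was therefore also rescaled so that these genes sum to 1 fixed total in each library, and comparisons between libraries use this rescaled TPM unless counts or CPM are named. All 6 macrophage markers were detected, at 1 TPM or more in every library, and 4 of 10 neutrophil markers were (S100a8, S100a9, Ngp and Mmp8). Monocyte markers were detected in 2 of 2 cases (Ly6c2 and Ccr2). The dendritic cell, T and NK cell, B cell, mast cell and basophil, fibroblast and endothelial lists each had 0 detected. Of all gene rows, 16.8% were detected. The neutrophil list summed to 94.06, 143 and 161.5 rescaled TPM, lowest in replicate 1, and Ly6g had 0, 0 and 1 counts. Malat1, a nuclear RNA, was at 1439, 1127 and 3885 rescaled TPM, so replicate 3 carried the most of it. The part of these differences in the values of the IL-1 genes was not tested.

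Il1b and Il1a lie 54.6 kb apart on mouse chromosome 2, both on the minus strand. On mm10, Il1b spans 129364570 to 129371139 and Il1a 129299610 to 129309972. The bases before the start sites of Il1a and Il1b are shown, from RefSeq on GRCm38.p6 and read 5′ to 3′ on the gene's strand. Capitals mark matches to motifs of signal-responsive and macrophage promoters. The letters searched on both strands were GGGNNNNNCC (a kB site, bound by NF-kB), TGACTCA (AP-1), TGACGTCA (CRE), TTGCNNAA (C/EBP), GAGGAAG (the ETS factor PU.1) and TATAAA (the TATA box).
Il1a, chr2:129309973-129310222, minus strand: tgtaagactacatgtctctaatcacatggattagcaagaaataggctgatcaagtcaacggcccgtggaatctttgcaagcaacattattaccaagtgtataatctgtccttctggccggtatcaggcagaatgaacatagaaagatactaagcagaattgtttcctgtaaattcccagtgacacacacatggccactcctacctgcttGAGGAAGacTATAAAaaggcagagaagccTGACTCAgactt
Il1b, chr2:129371140-129371389, minus strand: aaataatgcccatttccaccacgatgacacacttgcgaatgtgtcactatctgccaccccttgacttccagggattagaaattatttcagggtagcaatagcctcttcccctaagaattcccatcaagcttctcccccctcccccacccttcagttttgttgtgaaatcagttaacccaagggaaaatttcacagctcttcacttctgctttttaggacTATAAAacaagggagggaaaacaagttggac
The Il1a window held GAGGAAG at -41, TATAAA at -32 and TGACTCA at -12, counting the first base of each match from the start site. The Il1b window held only TATAAA, at -31. Over 32851 RefSeq windows of 300 bases (250 before the start and 50 from it on), 13.6% held the TATA box, 13.6% GAGGAAG and 5.20% TGACTCA. Neither window held GGGNNNNNCC, which 50.8% of all windows hold. For Il1rn, 24336853 to 24351494 on the plus strand of chromosome 2, the window of the start at 24345291 held GGGTTTTTCC at +29. Its upstream start at 24336860 held matches to GGGNNNNNCC at -54 (GGGAGTGGCC) and -4 (GGGCAGTTCC) and TGAGTCA, the reverse complement of the AP-1 letters, at -141. A further RefSeq start at 24345371 had the same GGGTTTTTCC at -51 and TTTATA, the TATA letters reversed and complemented, at +14. Il1rap, highest in replicate 3, had 9 matches to GGGNNNNNCC, counted on both strands and in part overlapping. Il18bp had TTGCGGAA at -49 and Il18 had TTTATA at -175. The Il18 window belongs to a start at 50554700, near that of Il18-203 at 50554827. Il18-202 and Il18-204 start downstream of it, at 50575273 and 50565374, so their upstream bases were not searched. These forms held 44.0% and 32.9% of the TPM of Il18 in the first transcript table, and Il18-203 held 23.1%. Il1r1 had TTGCTGAA at -133 from its start at 40225080 and GGAATGCCCC at -232 from that at 40266586, and Il1r2 had none. A match is a description of letters and shows no binding, and a link between these letters and the levels was not tested.

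The 3′ UTRs of Il1a and Il1b were searched for ATTTA, the AU-rich pentamer found in many short-lived cytokine mRNAs. The 30-base stretch of each with the most pentamers is shown as DNA with the pentamers in capitals, from GENCODE M21 transcripts.
Il1a-201, from base 573 after the stop codon: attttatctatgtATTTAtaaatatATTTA
Il1b-201, from base 192 after the stop codon: caaccacttacctATTTATTTAtgtATTTA
The 459-base 3′ UTR of Il1b held 4 pentamers, or 8.71 per kb. Of 1024 coding genes with a 3′ UTR of like length, 97.4% had fewer. Il1a held 3 in 1101 bases, where 66.7% of 1379 genes of like length had fewer. The antagonist Il1rn held 0 in 1306 bases, where the median over 1395 genes of like length was 2. Il18bp held 3 in 861 bases, Il18 1 in 123 and Il1rap 8 in 2676, where 77.1%, 78.3% and 79.4% of genes of like length had fewer, so these stood above Il1a on this measure. Each gene was scored on its main transcript, the complete coding one with the highest mean TPM in the first transcript table. For Il18bp and Il18 this was Il18bp-203 and Il18-202, which did not lead in the second, and other forms were not scored. No main transcript of the 8 genes held the longer form, ATTTA with TT on both sides, which 7.0% of 9091 coding genes hold.

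Il1b, the agonist secreted after inflammasome activation, had 1852, 1528 and 635 expected counts, or 35.07, 9.07 and 8.63 TPM (17.6 ± 15.1 TPM, SD, n = 3). Rescaled, it stood at 140.5, 41.2 and 43.9 TPM. Replicate 1 lay above both others, and replicates 2 and 3 were within 1.07 times of each other. Il1a, which acts both as a cytokine and inside the cell, had 850, 855 and 771 counts and 9.64, 2.94 and 5.57 TPM (6.05 ± 3.38 TPM). Its rescaled levels were 38.6, 13.4 and 28.4 TPM, so it too was highest in replicate 1, but replicate 3 lay well above replicate 2. Il18, an interferon-gamma inducing cytokine, had 298, 874 and 338 counts and 10.23, 9.00 and 7.65 TPM (8.96 ± 1.29 TPM). Rescaled to 41.0, 40.9 and 38.9 TPM, it was almost level over the libraries.

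Among the blockers, Il1rn, the receptor antagonist, had 1919, 3601 and 1927 counts and 22.1, 12.75 and 14.57 TPM (16.5 ± 4.96 TPM, SD, n = 3). Its rescaled levels were 88.5, 58.0 and 74.2 TPM, with replicate 1 highest and replicate 2 lowest, as for Il1a. Il18bp had 1184, 2481 and 1404 counts and 17.17, 11.33 and 13.17 TPM (13.9 ± 2.99 TPM). Rescaled, it stood at 68.8, 51.5 and 67.1 TPM, with replicate 2 lowest. Il1rn lay above 76.9% and Il18bp above 72.6% of the 9730 genes whose mean reached 1 TPM, next to 78.2% for Il1b, 60.4% for Il18 and 47.5% for Il1a.

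Il1rap, the signalling chain shared by the IL-1 and IL-33 receptors, had 184, 587 and 319 counts and 0.860, 0.880 and 1.00 TPM (0.913 ± 0.0757 TPM, SD, n = 3). Its rescaled levels of 3.44, 4.0 and 5.09 TPM were highest in replicate 3, unlike those of the ligands. Il1r2, the decoy, had 14, 41 and 9 counts and 0.260, 0.290 and 0.10 TPM. Il1r1, the signalling receptor, had 12, 27 and 13 counts and 0.0500, 0.0300 and 0.0300 TPM, a scale deposited to 2 decimals and thus coarse here. In CPM, counts scaled by library depth, with exact 95% Poisson intervals, Il1r1 was at 0.438 (0.226 to 0.765), 0.331 (0.218 to 0.481) and 0.350 (0.186 to 0.598). These intervals overlap, and all lie above the limit that a count of 0 allows at each depth, 0.110, 0.0368 and 0.0807 CPM. Il1r2 was at 0.511 (0.279 to 0.858), 0.502 (0.361 to 0.682) and 0.242 (0.111 to 0.460) CPM, again with overlapping intervals. Its rescaled levels of 1.04, 1.32 and 0.509 TPM differed by 2.59 times, lowest in replicate 3, on 9 to 41 counts, and this difference was not tested. Intervals and limits cover counting error only. In a bulk sample, few cells with much of a receptor mRNA and many cells with little cannot be told apart.

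**Figure D1:**
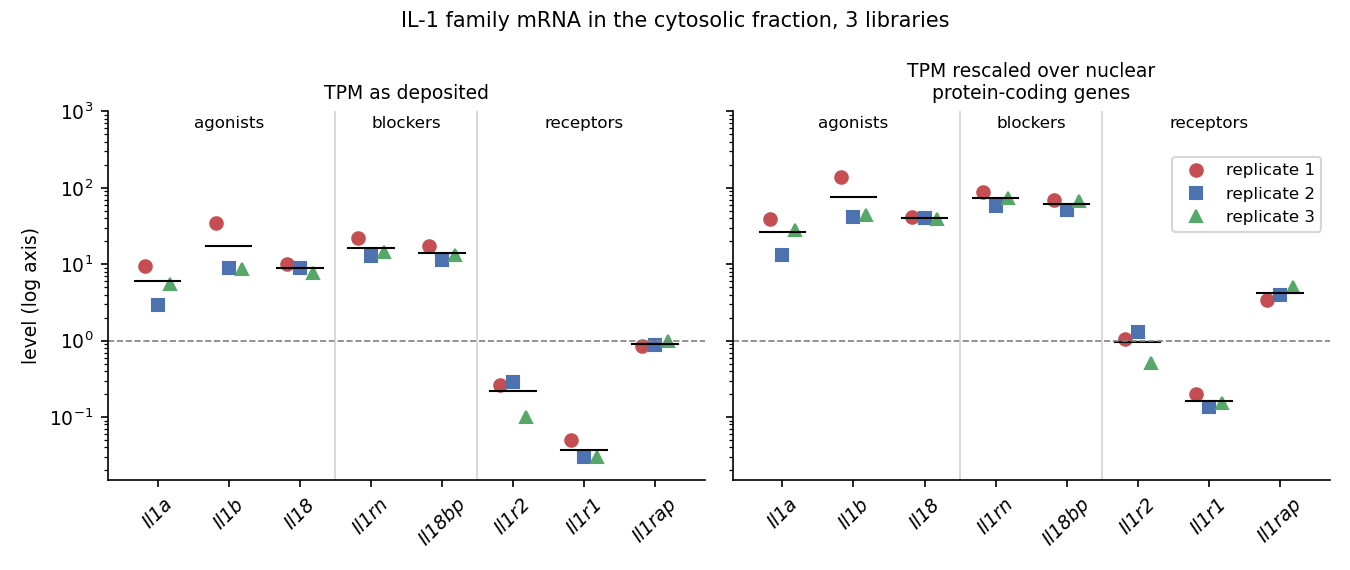
Level of each of the 8 genes on a log axis, as deposited TPM (left) and as TPM rescaled over nuclear protein-coding genes (right), with 1 marker per library, the mean as a black line and a dashed line at 1 TPM. Il1b and Il1a are spread out with replicate 1 on top, Il18 is tight after rescaling, and Il1r1 and Il1r2 lie lowest.

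By the criterion of 1 TPM in all 3 libraries, 5 of the 8 genes were detected, against 16.8% of all gene rows. In order of mean TPM the genes ran Il1b, Il1rn, Il18bp, Il18, Il1a, Il1rap, Il1r2 and Il1r1. The first place of Il1b rested on replicate 1, the only library in which it exceeded Il1rn or Il18bp. Without that library its mean fell from 17.6 to 8.85 TPM, below 13.7 TPM for Il1rn and 12.2 TPM for Il18bp. Each other pair of neighbours in the order kept its direction in all 3 libraries, although Il18 exceeded Il1a by only 0.09 on the log2 scale in replicate 1, against 1.61 and 0.46 in the others. From Il1a down to Il1rap the step was 3.49, 1.74 and 2.48 on the log2 scale.

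Ratios within a library do not depend on the scaling between libraries. The log2 ratio of Il1b to its antagonist Il1rn was 0.67, -0.49 and -0.76 (-0.19 ± 0.76, SD, n = 3), so agonist mRNA exceeded antagonist mRNA in replicate 1 and was below it in the other libraries. Il1b exceeded Il1a by 1.86, 1.63 and 0.63 (1.37 ± 0.65), higher in 3 of 3 libraries. Il18 lay below Il18bp in 3 of 3, with log2 ratios of -0.75, -0.33 and -0.78 (-0.62 ± 0.25).
Il1r1 lay below the decoy Il1r2 at -2.38, -3.27 and -1.74 on the log2 scale (-2.46 ± 0.77), on 9 to 41 counts per gene and library. In replicate 3 Il1r1 had more counts than Il1r2, 13 against 9, and the order rests on its longer transcripts. Il1rap exceeded Il1r1 by 4.10, 4.87 and 5.06 (4.68 ± 0.51). Adding 0.1 TPM before the ratio brought these receptor ratios to -1.16 and 2.89, with the same direction.

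**Figure D2:**
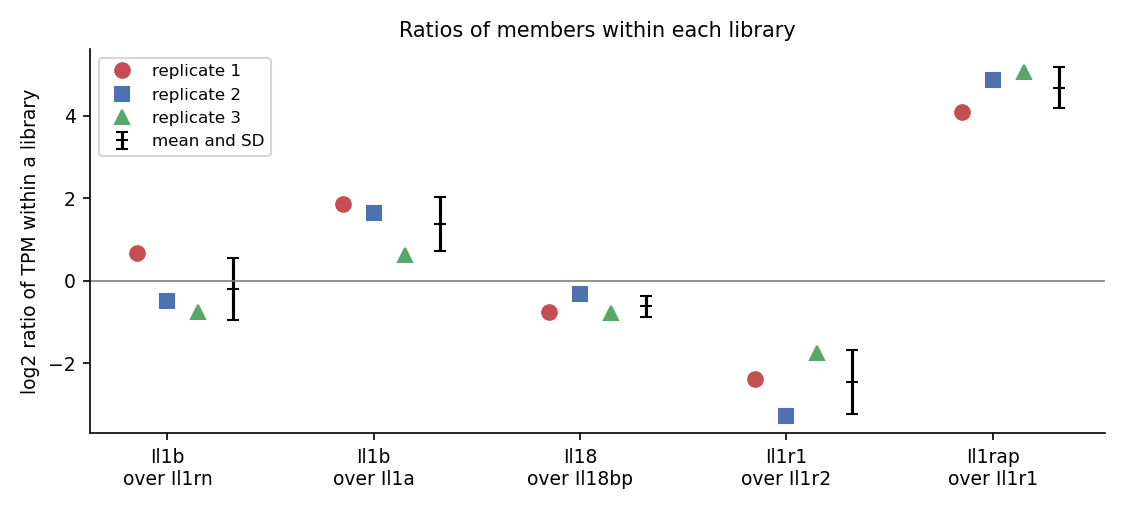
Log2 ratio of TPM between pairs of the 8 genes within each library, with 1 marker per library and the mean with SD in black. The ratio of Il1b to Il1rn lies on both sides of 0, and the other 4 pairs keep their side in all 3 libraries.

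Of the 5 members whose mean reached 1 TPM, Il1a and Il1b differed by 2 times or more between the highest and the lowest library on rescaled TPM, and 3.64% of the 9730 genes tested did so. The median ratio of highest to lowest library was 1.53 over these members and 1.15 over all genes tested. Of the genes tested, 98.6% differed less than Il1b and 98.3% less than Il1a, while 10.9% differed less than Il18. Replicate 1 was highest for 5 of the 5 members and for 30.4% of genes tested. For Il18 the lead was 40.98 against 40.92 rescaled TPM in replicate 2, almost a tie. Il18bp led narrowly too, with 68.8 against 67.1 rescaled TPM in replicate 3. Of the members below the mean of 1 TPM, Il1r1 was highest in replicate 1, Il1r2 in replicate 2 and Il1rap in replicate 3. Without replicate 1 the ratio for Il1b fell from 3.41 to 1.07, so its spread rested on that library. Without replicate 2 the ratio for Il1a went from 2.89 to 1.36, and without replicate 1 to 2.12.

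Other early Toll-like receptor response genes showed the same order at the top. All 8 (Tnf, Ccl3, Ccl4, Cxcl1, Cxcl2, Nfkbia, Tnfaip3 and Ier3) were highest in replicate 1, against 30.4% of all genes tested. Of the 8, 5 differed by 2 times or more, against 3.64% of all genes tested, Cxcl1 by 4.66 times and Tnf by 4.17 times. This list was chosen with earlier results of these data known. Among 3395 coding genes whose mean reached 10 TPM, those nearest to Il1b in pattern over the 3 libraries were Nfkbiz, Marcksl1, Tnf, Irf1 and Cxcl2. Likeness was the largest difference over the libraries of centred log2 rescaled TPM. Nfkbiz, which encodes an NF-kB cofactor, stood at 108.9, 27.3 and 31.3 rescaled TPM and differed from the pattern of Il1b by at most 0.12. Only 3 genes lay within 0.25 of Il1b. For Il1rn 358 genes lay within 0.25, so its nearest genes (H2-Ab1, Morc3, Rps12-ps3, Siglec1 and Ccl7) single out little. The number near a gene depends on its own spread, and 98.6% of genes tested differed less between libraries than Il1b. The low number for Il1b thus does not show that its nearest genes single out more. With 3 libraries such likeness describes these libraries and carries no test.

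**Figure D3:**
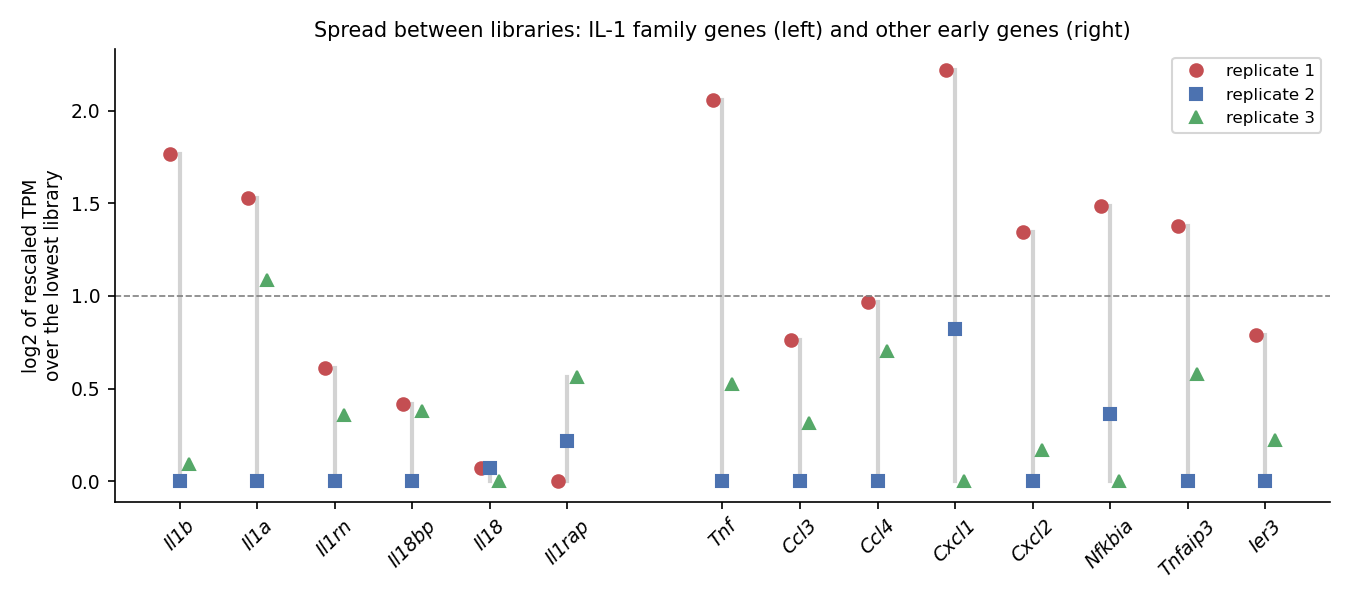
Log2 of rescaled TPM over the lowest library for 6 IL-1 family genes (left) and 8 other early genes (right), with 1 marker per library and a dashed line at a 2-fold difference. Il1b, Il1a, Cxcl1, Tnf, Cxcl2, Nfkbia and Tnfaip3 pass the line with replicate 1 highest, and Il18 stays near 0.

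Most of the Il1b signal came from the spliced coding transcript Il1b-201, which encodes 269 residues and held 88.3%, 81.7% and 69.8% of the gene's TPM (79.9% ± 9.35, SD, n = 3). The remainder was nearly all Il1b-203, a 689-base model of biotype retained_intron that ends early and keeps intron 2 of 6, chr2:129369752-129370283. It held 11.1%, 18.3% and 29.1% (19.5% ± 9.05), from 90.3, 130 and 93.4 estimated counts. The spliced form differed by 4.05 times between libraries (124, 33.7 and 30.7 rescaled TPM) and the intron-retaining model by 2.08 times (15.7, 7.55 and 12.8 rescaled TPM). Replicate 3 had the highest share of the intron-retaining model and the most Malat1; whether these are linked was not tested. The antisense gene Il1bos, with 13, 17 and 11 counts, shares 25 exon bases with Il1b-203 and 0 with Il1b-201. Whether the libraries keep the strand is not stated, so reads in those bases cannot be assigned to a gene with certainty. The second transcript table, made from the reads without the alignments of the first, put Il1b-203 at 11.8%, 17.7% and 24.8%, in the same order of libraries, and gave 13.8% on average to the short noncoding model Il1b-202, which held 0.538% in the first.

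Il1rn has 2 groups of start sites. Il1rn-201, from the downstream start and encoding the secreted antagonist of 178 residues, held 74.8%, 73.3% and 65.2% of the gene's TPM (71.1% ± 5.18, SD, n = 3). Il1rn-204, from the upstream start and encoding an intracellular form of 159 residues, held 16.2%, 16.1% and 20.2% (17.5% ± 2.34). The secreted form thus led in every library, and the second table gave 69.7% and 10.2% on average. Il1rap was mostly Il1rap-201, the membrane form of 570 residues, at 93.1%, 85.2% and 86.0%. Il1rap-206, a shorter coding form of 360 residues, held 3.45%, 11.4% and 11.0%.

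For Il18 and Il18bp the transcript tables did not name the same leading form by mean share. Il18bp-203 held 71.5% ± 11.9 of the gene's TPM in the first table and 37.0% in the second, where Il18bp-201 led with 57.8%. Both encode 193 residues with the same coding end, so the split concerns untranslated exons. Il18-202 and Il18-204, both of 192 residues, held 44.0% ± 10.2 and 32.9% in the first table and 22.5% and 47.9% in the second. Within the first table Il18-204 led in replicate 1, with 43.3% against 36.0%, and Il18-202 led in replicates 2 and 3. Il18-203, whose coding sequence has 78 residues and another end, held 23.1% in the first table and 27.4% in the second.

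**Figure D4:**
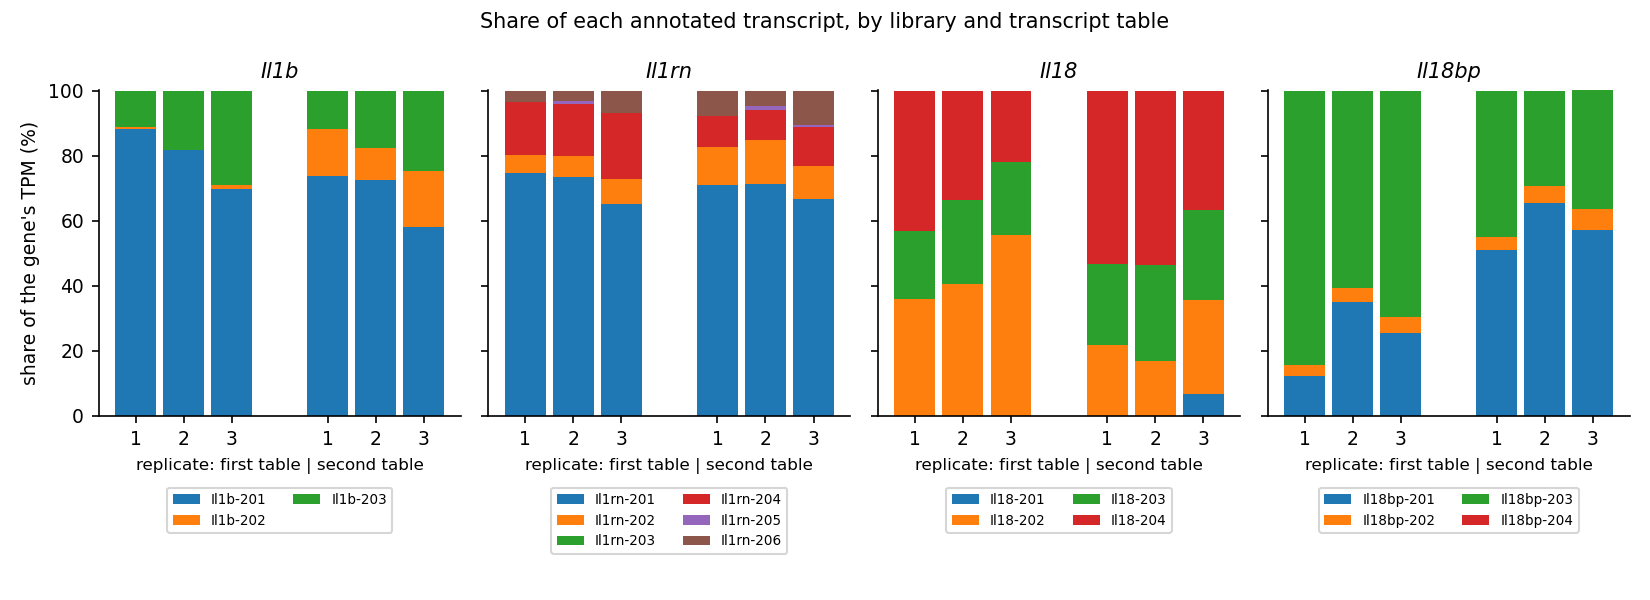
Stacked share of each annotated transcript in the TPM of Il1b, Il1rn, Il18 and Il18bp, with 1 bar per library from the first transcript table (left of each panel) and the second (right). By mean share, the leading form of Il1b and of Il1rn is the same in both tables, and that of Il18 and of Il18bp is not.

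Il1a overlaps the antisense gene Gm14023 by 222 exon bases, and no source used here states whether the libraries keep the strand. Reads there cannot be assigned to a gene with certainty. Gm14023 took 49.9, 70.2 and 98.1 counts, or 5.54%, 7.59% and 11.3% of the summed counts of the pair. The sums of 900, 925 and 869 counts leave the order of the libraries for Il1a per depth unchanged. Il18bp shares 80 exon bases with Numa1 and Il1rap 552 with Gm20319, both on the opposite strand, and their counts carry the same limit.

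The other ligands of the family were at or near 0 counts. Of Il33, Il1f5, Il1f6, Il1f8, Il1f9 and Il1f10, 0 of 6 were detected, against 16.8% of all gene rows. A count of 0 in so short a list is near that share. Among the 6 genes, 4 had 0 counts in all libraries. Il1f10 lies 43.0 kb from Il1rn. Il1f9, which encodes IL-36 gamma, had 6, 9 and 5 counts. Of 7 other receptors 0 were detected in the deposited TPM of the gene tables, again near the share of 16.8%. After rescaling, 2 were at 1 TPM or more. These were Il1rl2, the IL-36 receptor, at 3.60, 2.05 and 2.70 rescaled TPM, and Sigirr, an inhibitory receptor, at 1.60, 2.46 and 1.32 rescaled TPM. Il1rapl2 had 0 counts in the gene tables but 89.0, 351 and 194 estimated counts in the second transcript table. There it stood at 2.545, 3.54 and 4.62 rescaled TPM, and the cause was not tested. Il1rl2 lies 7.35 kb from Il1r1 and stood above it in all 3 libraries, as 0.900, 0.450 and 0.530 against 0.0500, 0.0300 and 0.0300 TPM. Il18r1, the ligand-binding chain of the IL-18 receptor, had 0, 4 and 3 counts. Its partner chain Il18rap had 42, 109 and 41 counts, or 0.240, 0.150 and 0.110 TPM.

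Downstream of the receptors, 12 of 12 signalling genes were detected, against 16.8% of all gene rows. Of these, 0 differed by 2 times between libraries, where 3.64% of all genes tested did, so a count of 0 in so short a list is near the background. Tab2 stood at 21.8 ± 3.41, Tollip at 18.6 ± 1.67, the adaptor Myd88 at 17.5 ± 3.83 and the kinase Irak1 at 15 ± 1.98 TPM (SD, n = 3). For cytokine processing and release, 12 of 12 were detected, again against 16.8% of all gene rows. Here too 0 differed by 2 times, near the background of 3.64%. Capn2, a subunit of the calpain that cleaves IL-1 alpha precursor, stood at 30.7 ± 2.81, Casp1 at 24.6 ± 3.43, Pycard, the inflammasome adaptor, at 16.6 ± 1.99 and the pore-former Gsdmd at 12.8 ± 2.08 TPM. The sensor Nlrp3 was at 6.60 ± 1.68 TPM and differed by 1.39 times. The medians of the signalling and processing lists were 7.43 and 16.1 TPM, so both lists lay above Il1rap, Il1r1 and Il1r2.

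**Figure D5:**
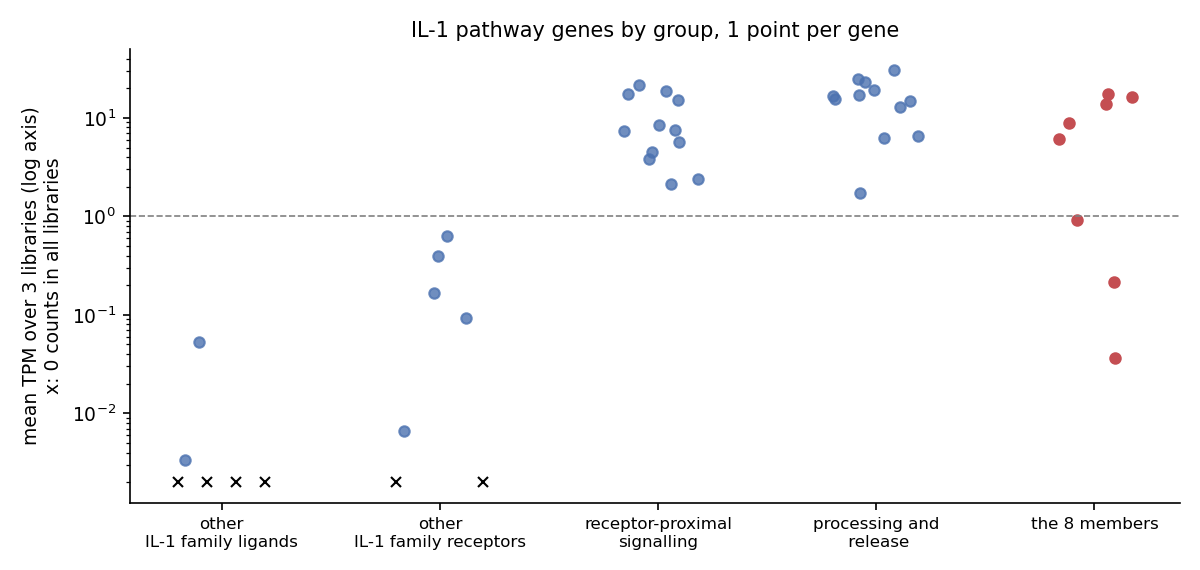
Mean TPM over the 3 libraries, from the gene tables, on a log axis for genes of 4 IL-1 pathway lists (blue) and the 8 family members (red). Each gene has 1 point, crosses are genes with 0 counts in the gene tables, and a dashed line marks 1 TPM. All signalling and processing genes lie above the line, and all other ligands and receptors lie below it.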

How the data were processed

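The deposited gene tables give expected counts (estimates of reads per gene, not always whole), TPM (per length, scaled so that each library has 1 common sum) and FPKM (fragments per kilobase at a common depth) per the file headers. Per the notes deposited with the libraries, the gene table and first transcript table came from transcriptome alignments and the second transcript table from the reads, on mm10 with GENCODE M21. Not given in the sources used here are the aligner, the quantifier, their versions and strandedness. Of 81881 rows, 26345 named no gene, held 0.402%, 0.108% and 0.122% of counts and were left out.

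Rescaled TPM sets the nuclear protein-coding genes of each library to 1 common total, with factors of 4.006, 4.546 and 5.091. Detection needed at least 1 TPM in each library. Spread is the highest over the lowest library for genes whose mean reached 1 TPM, called at 2 times. The call was tried on simulated counts that held counting error only, so that trial does not cover variation between real libraries. Genes were named by a rule: all 8 members, detected genes of the pathway and marker lists, and the 5 nearest in pattern to Il1b and Il1rn. Genes below the limit (Il33, Il1f5, Il1f6, Il1f8, Il1f9, Il1f10, Il18r1, Il18rap, Il1rl2, Il1rapl2, Sigirr, Ly6g) were named after their values were seen. Members, lists and alternatives were chosen with earlier results of these data known. Alternatives were other limits and folds, deposited or posterior mean TPM, FPKM, the second transcript table, TMM-normalised CPM and leaving out each library. Tools were pandas 2.3.3, numpy 2.4.6, scipy 1.17.1, matplotlib 3.10.9 and, for TMM factors, edgeR 4.0.16. Promoters came from RefSeq GRCm38.p6, in 11 windows that matched all 8 genes. Positions are those of GENCODE M21 on mm10.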

Additional observations from a re-analysis of the deposited data

How the results depend on the processing

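No paired analysis was possible because there is 1 condition. The count of genes detected was 5 under the limit of 1 TPM and 6 at a limit of 0.5 TPM or after rescaling, when Il1rap was added. The count of members differing by 2 times between libraries was 2, 3 at a fold of 1.5, 1 at a fold of 3 and 3 with no minimum mean, when Il1r2 was added. Leaving out each library in turn gave 1 to 2: Il1a without replicate 1, Il1b without replicate 2 and both without replicate 3. Replicate 1 exceeded the mean of the others for Il1b by 3.30 times on rescaled TPM, 3.96 times on deposited TPM, 3.05 times in the second table rescaled and 3.60 times on TMM-normalised CPM. With 0.1 TPM added, the log2 ratios of Il1r1 to Il1r2 and of Il1rap to Il1r1 were -1.16 and 2.89, nearer to 0 because the added value exceeds the level of Il1r1. The log2 ratio of Il1b to Il1rn was 0.02 in the second table, -0.62 without replicate 1 and 0.09 without replicate 3, so its sign is not settled. In the second table the share of Il18bp-203 was 37.0% and that of Il18-202 22.5%; the cause was not tested. Mean TPM was lower there for all 8 genes, where coding genes held 10.5%, 8.92% and 6.71% of TPM. Depth limits Il1r1 and Il1r2, with at most 41 counts per library.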
